A study of Mus musculus with 12 samples.

Results

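The opioid and nociceptin family was examined in the hypothalamus of mouse pups, as 3 genes for peptide precursors (Pnoc, Penk and Pdyn) and 4 genes for receptors (Oprl1, Oprm1, Oprd1 and Oprk1). These 7 genes were found by symbol among the 43280 gene rows of the deposited count table. They were chosen by family, with the fold changes of MMS over control in these same libraries already known, so those differences are given as a description and without a test. Whole hypothalamus came from C57/Bl6 pups at postnatal day 6, with 6 pups as controls and 6 in the modified maternal separation (MMS) group, whose daily sessions apart from the dam involved being turned onto the back after each righting. By the methods the pups were males and each litter supplied both groups, but the labels do not name the litter of a library. MMS tissue was taken straight after the last session. Library totals were 3218777 to 6560620 counts.

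Opioid peptides are cut from larger precursor proteins inside neurons and act on receptors that couple to inhibitory G proteins, which lower cyclic AMP, open potassium channels and close calcium channels. Penk encodes the enkephalins, which act at the delta receptor (Oprd1) and the mu receptor (Oprm1). Pdyn encodes the dynorphins, the ligands of the kappa receptor (Oprk1), and Pnoc encodes nociceptin, the ligand of the nociceptin receptor (Oprl1). In the hypothalamus these systems are known for roles in feeding, water balance, reproduction, pain and the response to stress.

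The sequences that define the family are the stretches of coding sequence for the peptides themselves, shown here because the 3 precursor genes are read as 1 family through them. Each runs from the opioid core to the next pair of codons for lysine and arginine, or to the stop codon, as found in GENCODE M21 transcripts (build GRCm38, minus strand for all 3 genes). Capitals mark the 4 codons of the core, which are tyrosine, glycine, glycine and phenylalanine in Penk and Pdyn, while nociceptin begins with phenylalanine in place of tyrosine.
Pnoc, nociceptin (chr14:65404842-65404892, exon 3 of 4): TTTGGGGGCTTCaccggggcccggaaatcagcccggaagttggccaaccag
Pdyn, dynorphin A (chr2:129688094-129688144, exon 4 of 4): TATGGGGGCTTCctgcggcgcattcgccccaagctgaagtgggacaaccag
Penk, first Met-enkephalin (chr4:4134334-4134348, exon 2 of 2): TACGGAGGCTTCatg
Penk, Leu-enkephalin (chr4:4133941-4133955, exon 2 of 2): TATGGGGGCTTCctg
Penk, last enkephalin unit (chr4:4133842-4133862, exon 2 of 2): TACGGGGGCTTTatgcggttc

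Nociceptin and dynorphin A were the same length, at 17 codons each. The coding sequence of Penk held 7 cores, of which 6 were followed by methionine and 1 by leucine. Pdyn held 3 cores, all followed by leucine, and Pnoc held 1, followed by threonine. A count of Penk transcripts is thus a count of molecules that each carry 7 enkephalin units, whereas a Pnoc transcript carries a single nociceptin. The coding sequences of the 4 receptors were 61.8% to 68.7% identical in aligned bases, the closest pair being Oprm1 and Oprd1. No window of 30 bases was shared between the annotated transcripts of any 2 of the 7 genes.

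The genes lie apart on the genome. Pnoc is at 14:65400673-65425472, Penk at 4:4133531-4138819, Pdyn at 2:129686565-129699844 and Oprd1 at 4:132110726-132144486, all on the minus strand. Oprl1 is at 2:181715016-181720985, Oprm1 at 10:6758506-7038198 and Oprk1 at 1:5588466-5606131, on the plus strand. The annotation gives Oprm1 31 transcripts with 25 different 3' ends, against 11 transcripts and 8 ends for Oprl1 and a single transcript for Oprd1. Oprm1 overlaps Ipcef1 and Gm10945 on the opposite strand, and Penk overlaps A830012C17Rik on the opposite strand. Whether strand was used in counting is not given in the sources used here, so reads of these partners cannot be told apart from those of Oprm1 and Penk.

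The tissue and the libraries were checked first. Of 14 markers of the hypothalamus 13 passed the count filter, the exception being Rax, and their summed level was 1131 to 2109 CPM (counts per 1000000 counts of the TMM-scaled library) in controls and 1491 to 1955 CPM in MMS. Of the markers of neighbouring tissue, those of thalamus and habenula varied most between libraries, at 133 to 584 CPM in controls and 142 to 495 CPM in MMS for the sum of 7 genes. The 9 striatal markers, several of which the hypothalamus also expresses, summed to 340 to 463 CPM in controls and 310 to 432 CPM in MMS. Tac1 was the largest, at means of 227 and 204 CPM. Of 8 tested, 3 had a log2 fold change above 0 and 5 below, with a median of -0.05. The lowest were Ppp1r1b at -1.07 (SE 0.42) and Adora2a at -0.92 (SE 0.28). The part of striatal tissue in the opioid gene values was not tested. Drd2 had 0 counts in every library, which need not mean absence, since the annotation used in counting is not given. The 6 cortical and hippocampal markers summed to at most 65.0 CPM and the 6 pituitary markers to at most 27.0 CPM, with Fshb and Pou1f1 at 0. Over all genes, MMS 2 and MMS 4 were set off from the rest, with scores of 57.8 and 46.3 on the first principal component against -14.4 to -3.04. In these 2 libraries the 7 markers of ependymal cilia summed to 19.6 and 42.9 CPM, against 75.6 to 196 CPM in the others. Among the markers of the hypothalamus, Rax was at 0 CPM in both, against 1.09 to 6.04 CPM in the others. Agrp and Pomc also lay below the other libraries and Pmch above them, which the summed level does not show. Lhx1 lay below the others in MMS 2 alone, at 27.4 CPM against 32.7 to 76.4 CPM. Nkx2-1 lay above them in MMS 4 alone, at 30.5 CPM against 10.5 to 29.2 CPM. The remaining markers lay within the range of the other libraries. The fold changes described here are therefore also given without MMS 2 and MMS 4.

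The levels of the 7 genes fell into 3 tiers, set by all 12 libraries together. A 3' library is designed to give 1 fragment per molecule independently of gene length, and the genes were compared on the log2 CPM scale without a length correction. Counts also depend on which 3' ends were counted, which is not known, and Oprl1 has 8 annotated ends. The sign-flip tests measure only how steady a difference in counts was across libraries. Oprl1, the nociceptin receptor, was the most abundant, at 122 ± 9.89 CPM in controls and 128 ± 19.9 CPM in MMS (SD, n = 6 per group), above 86.7% of the genes tested. It exceeded Penk, the next in order, by 0.63 ± 0.27 on the log2 scale (SD, n = 12) and did so in 12 of 12 libraries (exact sign-flip test, two-sided, p = 0.00049, the smallest p this design gives; adjusted over 21 pairs, 0.00064). The 3 precursors followed closely on each other. Penk over Pdyn differed by 0.05 ± 0.74 (SD, n = 12; exact sign-flip test, adjusted p = 0.833) and Pdyn over Pnoc by 0.11 ± 0.76 (exact sign-flip test, adjusted p = 0.676). Over both groups together these neighbours did not differ beyond their spread. Penk over Pnoc differed by 0.16 ± 0.24 (exact sign-flip test, adjusted p = 0.0604). The order was not the same in each group. Mean levels of Pdyn, Penk and Pnoc were 91.0, 75.7 and 61.2 CPM in controls and 75.9, 86.1 and 85.4 CPM in MMS. Pdyn and Penk lay above Pnoc in every control, but not in every MMS library.

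Without MMS 2 and MMS 4 the order of the precursors was Pdyn, Penk, Pnoc. Penk then stood 0.23 below Pdyn (a difference of -0.23; exact sign-flip test, adjusted p = 0.0734) and Pdyn 0.39 above Pnoc (exact sign-flip test, adjusted p = 0.0160). MMS 2 and MMS 4 had the lowest Pdyn of all libraries, so leaving them out raises Pdyn against the others by itself. The test then holds 6 controls and 4 MMS libraries. No order of the precursors is therefore drawn from it.

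Oprk1, the kappa receptor, formed the middle tier, with 1.79 ± 0.56 less than Pnoc on the log2 scale (SD, n = 12; lower in 12 of 12 libraries, exact sign-flip test, adjusted p = 0.00064). The delta and mu receptors lay far below in counted reads. The annotation used in counting is not given, and Oprm1 has 25 annotated 3' ends. Reads from an end that the counting left out would be missed, so low counts need not mean low transcript levels. Oprk1 exceeded Oprd1 by 4.45 ± 0.64 (SD, n = 12; exact sign-flip test, adjusted p = 0.00064), and Oprd1 and Oprm1 did not differ beyond their spread (0.23 ± 1.12; exact sign-flip test, adjusted p = 0.540). At so few counts the size of these differences depends on the prior count, and with 0.5 in place of 2 they were 5.17 and 0.54. The nociceptin receptor was thus measured from 344 to 892 counts a library, the kappa receptor from 43 to 152, and the delta and mu receptors from at most 10 and 9.

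**Figure D1:**
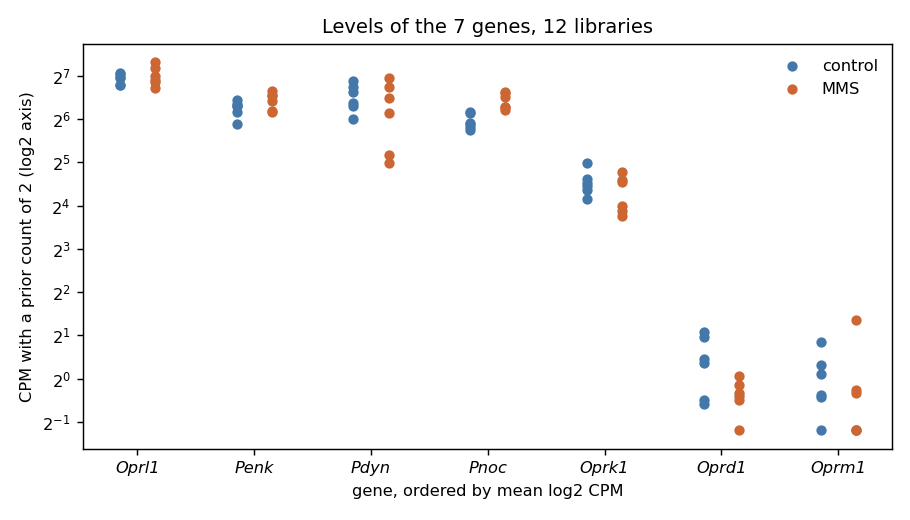
Level of each gene in CPM with a prior count of 2, on a log2 axis, with a point for each of the 6 control and 6 MMS libraries. Oprl1 lies highest, the 3 precursors overlap each other, Oprk1 lies below them and Oprd1 and Oprm1 lie lowest.

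The comparison of MMS with control asked whether transcript levels in this tissue differed after the sessions. Of the 7 genes, 5 passed the count filter and were fitted with the 13104 genes tested, and Oprm1 and Oprd1 were too low. At an adjusted p under 0.05, 0 of the 5 were called in edgeR, where the share over all genes was 0%, and 0 of the 5 in DESeq2 (0.0534% of all genes) and in limma-voom (0%). At an unadjusted p under 0.05, 1 of the 5 was called, Pnoc, by all 3 tools, where the shares over all genes were 9.08% in edgeR, 9.88% in DESeq2 and 10.3% in limma-voom, or 4.68%, 5.43% and 4.01% for higher values in MMS. The contrast was known when the genes were chosen, so nothing is read from these counts. Of the 5 genes 3 had a log2 fold change above 0, against 50.1% of all genes, and their median was 0.07 against 0.00091 over all genes. Such bulk levels do not tell apart fewer cells of a type and less RNA per cell.

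Among the precursors, Pnoc had the highest fold change. Its values were 59.2, 70.6, 53.0, 58.9, 56.0 and 69.5 CPM in controls 1 to 6. In MMS 1 to 6 they were 73.7, 90.5, 77.2, 76.6, 96.3 and 97.9 CPM. All 6 MMS libraries lay above the highest control, a separation found in 0.13% of all genes for higher values in MMS, and the nearest libraries, control 2 and MMS 1, were 70.6 and 73.7 CPM. Controls averaged 61.2 ± 7.24 CPM and MMS libraries 85.4 ± 10.8 CPM (SD, n = 6 per group), a log2 fold change of 0.48 (SE 0.11), or 1.40-fold. Of the members it was the one with separated groups. MMS 2 and MMS 4 did not stand apart in Pnoc, and without them the log2 fold change was 0.50 (SE 0.12). Pnoc varied little within a group, with a biological coefficient of variation of 0.139 against a trend of 0.163 for genes of its abundance. This was not particular to Pnoc, since Oprl1 was at 0.143 against 0.164 and Penk at 0.146 against 0.163.

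Penk, the enkephalin precursor, was measured at 78.8, 78.5, 58.7, 80.9, 71.1 and 86.0 CPM in controls 1 to 6. The MMS values were 72.3, 100.5, 92.7, 84.8, 71.8 and 94.4 CPM. The groups overlapped, with MMS 2, 3 and 6 above the highest control and MMS 1 and 5 within the control range. The log2 fold change was 0.18 (SE 0.12), from 75.7 ± 9.58 to 86.1 ± 11.9 CPM (SD, n = 6 per group). It was 0.13 without MMS 2 and MMS 4 and 0.12 without control 3, the lowest of the libraries.

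Pdyn, the dynorphin precursor, varied more than any other tested member. Controls 1 to 6 gave 63.9, 78.5, 117, 82.7, 106 and 97.8 CPM. MMS 1, 3, 5 and 6 gave 69.8, 107, 88.6 and 123 CPM, whereas MMS 2 and MMS 4 gave 31.4 and 35.5 CPM. Of these, MMS 1, 3 and 5 lay within the control range, MMS 6 above it, and MMS 2 and MMS 4 below every control. The fitted log2 fold change of -0.27 (SE 0.32) rested on those 2 libraries. Without them it was 0.09 (SE 0.17), with means of 91.0 ± 19.6 CPM in 6 controls and 97.1 ± 23.1 CPM in 4 MMS libraries (SD), and with 1 surrogate variable as a covariate it was 0.12 (SE 0.14). Leaving out MMS 2 alone gave -0.11 and leaving out MMS 6, the highest library, gave -0.46. The biological coefficient of variation of Pdyn was 0.378, against a trend of 0.163 at its abundance and 0.146 for Penk.

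Pdyn is known to be made in several kinds of hypothalamic neuron, among them orexin neurons and arcuate neurons that make kisspeptin and neurokinin B, and both marker lists hold Pdyn. The 5 arcuate markers summed to 63.7 and 59.8 CPM in MMS 2 and MMS 4 and to 81.8 to 151 CPM in the other libraries. Pdyn was the largest member of this sum, at 31.4 and 35.5 CPM in these 2 libraries. The low sum is thus largely Pdyn itself and tells nothing further about arcuate neurons. Apart from Pdyn their members went different ways there. Tac2, which encodes neurokinin B, was at 13.97 and 13.5 CPM, within the 6.89 to 22.8 CPM of the others. The neurokinin B receptor Tacr3 was at 12.6 and 6.92 CPM against 4.51 to 8.42 CPM, the oestrogen receptor Esr1 at 5.64 and 3.90 CPM against 4.35 to 13.9 CPM, and Kiss1 had 0 counts in every library. As for Drd2, such a 0 need not mean that the transcript was absent.

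The 3 orexin markers summed to 211 and 210 CPM in MMS 2 and MMS 4 and to 134 to 314 CPM in the others. Of the further arcuate peptides, Agrp was at 0 and 0.709 CPM against 2.58 to 34.3 CPM in the others. The 3 tested members of the orexin list had a median log2 fold change of 0.36 and the 4 of the arcuate list -0.12, and 0 of either passed an adjusted p of 0.05 in edgeR. Both medians include Pdyn itself. The part of these genes, and of the ependymal markers that were low in the same 2 libraries, in the Pdyn values was not tested.

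**Figure D2:**
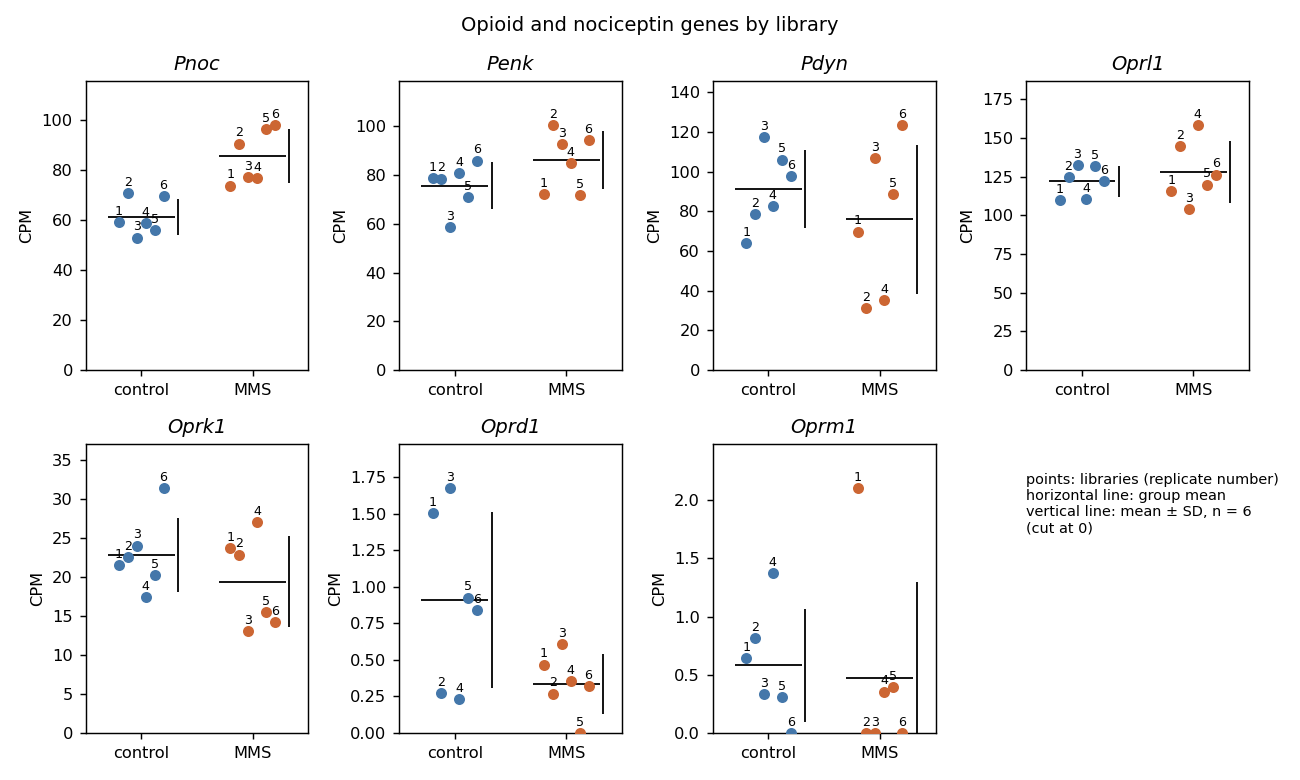
CPM of each gene in the 6 control and 6 MMS libraries, numbered by replicate, with the group mean as a horizontal line and mean ± SD as a vertical line, cut at 0. The groups of Pnoc do not overlap, Pdyn is lowest in MMS 2 and MMS 4, and Oprd1 and Oprm1 lie near 0.

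Among the receptors, Oprl1 was measured at 110, 125, 132, 110, 132 and 122 CPM in controls 1 to 6. The MMS values were 115, 145, 104, 158, 120 and 126 CPM. The highest were those of MMS 2 and MMS 4, the libraries that stood apart, and the other 4 lay within or below the controls. The log2 fold change was 0.07 (SE 0.11) over all libraries and -0.06 (SE 0.10) without these 2, so its sign rested on them. Leaving out MMS 4 alone gave 0.01.

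Oprk1 was measured at 21.5, 22.6, 24.0, 17.4, 20.2 and 31.4 CPM in controls 1 to 6. In MMS 1 to 6 it was 23.6, 22.8, 13.0, 27.0, 15.5 and 14.2 CPM. MMS 3, 5 and 6 lay below every control and MMS 1, 2 and 4 lay within the control range. The log2 fold change was -0.23 (SE 0.19) over all libraries. Without MMS 2 and MMS 4 it was -0.45 (SE 0.19), and with the surrogate variable -0.47 (SE 0.19). Leaving out control 6 alone brought it to -0.10 and leaving out MMS 4 alone to -0.34. The biological coefficient of variation was 0.216, against a trend of 0.202.

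**Figure D3:**
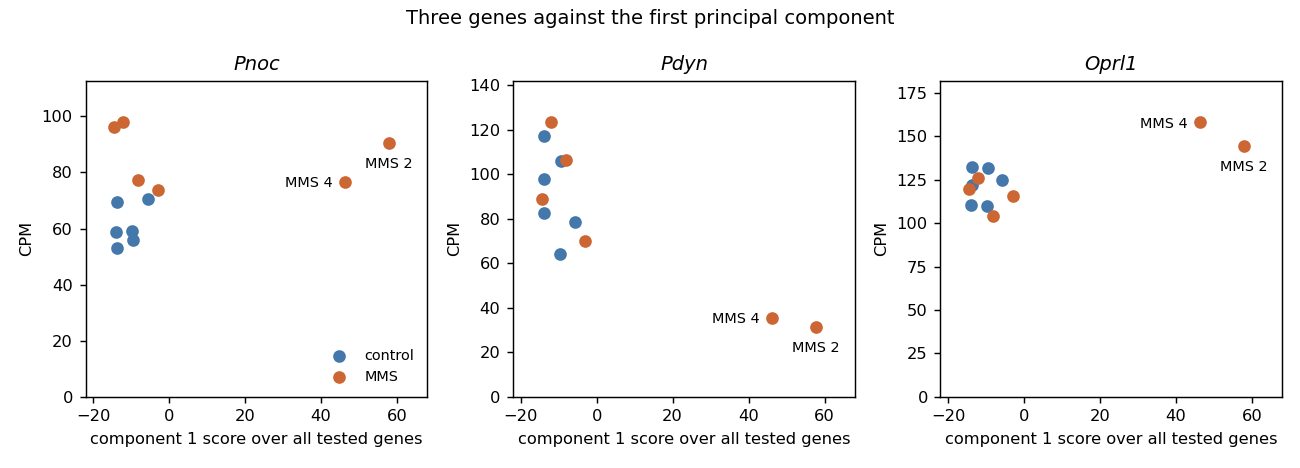
CPM of Pnoc, Pdyn and Oprl1 against the score of each library on the first principal component over all tested genes. MMS 2 and MMS 4 (scores 57.8 and 46.3) are lowest in Pdyn and highest in Oprl1, and in Pnoc they lie among the other MMS libraries.

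Oprd1, the delta receptor, gave 7, 1, 10, 1, 6 and 4 counts in controls 1 to 6 and 2, 1, 2, 2, 0 and 1 in MMS 1 to 6. These came to 0.909 ± 0.603 CPM for controls and 0.337 ± 0.204 CPM for MMS (SD, n = 6 per group), and the groups overlapped, since controls 2 and 4 were as low as the MMS libraries. The count of 0 in MMS 5 allows up to 0.588 CPM, from a floor of 3 counts.

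Oprm1, the mu receptor, gave 3, 3, 2, 6, 2 and 0 counts in controls 1 to 6 and 9, 0, 0, 2, 2 and 0 in MMS 1 to 6. Group means were 0.580 ± 0.482 CPM for controls and 0.476 ± 0.820 CPM for MMS (SD, n = 6 per group). It had 0 counts in 4 libraries, 3 of them MMS, and each of these allows up to 0.632 to 0.966 CPM. Fitted without the filter on low counts, the log2 fold change was -1.43 (SE 0.78) for Oprd1, from 29 counts in controls and 8 in MMS, and -0.16 (SE 0.89) for Oprm1, from 16 and 13 counts. Both fits rest on few counts.

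Summed over the family, the 3 precursors came to 202, 228 and 253 CPM in controls as the lowest, median and highest library and to 197, 240 and 316 CPM in MMS. The 4 receptors came to 129, 151 and 158 CPM in controls and to 118, 141 and 186 CPM in MMS. In both sums the range of the controls lay within that of the MMS libraries.

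**Figure D4:**
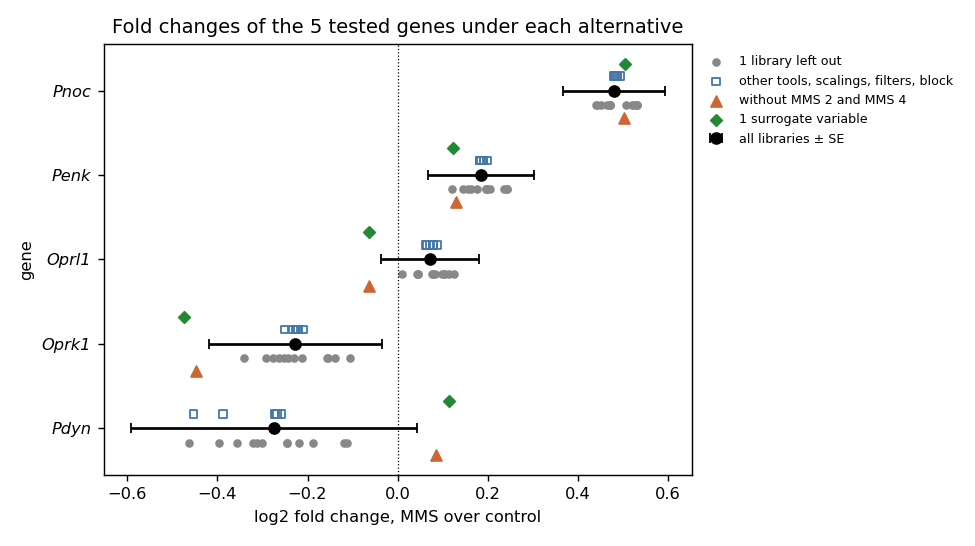
Log2 fold change of MMS over control for the 5 tested genes, with all libraries (black, ± SE), with each library left out in turn (grey), with other tools, scalings, filters or the replicate block (squares), without MMS 2 and MMS 4 (triangles) and with 1 surrogate variable (diamonds). Pnoc stays between 0.44 and 0.53, while Pdyn and Oprl1 lie on both sides of 0.

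Variation among pups within a group was not used to choose the genes, so precursors were compared with their receptors and with each other across the 10 libraries other than MMS 2 and MMS 4, after removal of the group means. None of 7 pairs was past 0.05 after adjustment. For nociceptin and its receptor, Pnoc and Oprl1, Pearson's r was 0.23 (exact permutation within groups, p = 0.542, adjusted 0.881) and Spearman's rho 0.16 (exact permutation p = 0.676, adjusted 0.895), and r was 0.0034 without the 2 libraries farthest from the median of Pnoc. In every pair these 2 libraries were picked by the first-named gene alone, so a library extreme in the second gene could stay in. For dynorphin and its receptor, Pdyn and Oprk1, r was -0.26 (exact permutation p = 0.492, adjusted 0.881) and rho -0.19 (exact permutation p = 0.621, adjusted 0.895), with r at 0.10 without the 2 farthest libraries. The highest r was that of 2 precursors, Penk and Pnoc, at 0.47 (exact permutation p = 0.178, adjusted 0.881), with rho 0.48 (exact permutation p = 0.204, adjusted 0.715) and r of 0.63 without the 2 farthest libraries.

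The remaining pairs lay closer to 0 or rested on few counts. For Penk and Oprd1 r was -0.18 and rho -0.26 (exact permutation p = 0.629 and 0.472), and r was -0.11 without the 2 farthest libraries. For Penk and Oprm1 r was -0.39 and rho -0.49 (exact permutation p = 0.341 and 0.197), and r was -0.73 without the 2 farthest. For Penk and Pdyn r was 0.03 and rho 0.05 (exact permutation p = 0.942 and 0.895), and r became 0.51. For Pdyn and Pnoc r was 0.06 and rho -0.09 (exact permutation p = 0.878 and 0.815), and r became -0.41. The adjusted p-values of these 4 pairs were 0.715 to 0.942. For 4 of the 7 pairs r moved by more than 0.3 on leaving out 2 libraries.

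The genes most like each member were taken from the 11725 other genes with a mean of at least 20 counts a library, by Pearson's r of the log2 CPM after removal of group means. These values are a description and the libraries share their depth scaling. For Pnoc they were Syn2, which encodes the synaptic vesicle protein synapsin II (r = 0.91 over 12 libraries and 0.96 over the 10), and Rgs17, a regulator of G protein signalling (0.89 and 0.89). For Penk they were Terf2, a telomere-binding protein (0.93 and 0.94), and Enox2 (0.88 and 0.88). For Pdyn they were Nup93, a nuclear pore protein (0.98 and 0.94), and the phosphodiesterase Pde2a (0.97 and 0.89). Both were low in MMS 2 and MMS 4, as Pdyn was, with Pde2a at 96.2 and 110 CPM there against 173 to 254 CPM in the other libraries.

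For Oprl1 the most alike genes were Cldn25 (0.94 over 12 libraries and 0.85 over 10) and Pantr1, a long noncoding RNA (0.93 and 0.80). Both were highest in MMS 2 and MMS 4, with Pantr1 at 49.97 and 59.6 CPM there and 23.6 to 36.4 CPM elsewhere. For Oprk1 they were Shisa4 (0.94 and 0.92) and Igfbp5, an insulin-like growth factor binding protein (0.93 and 0.92). Without the 2 libraries the r of the Oprk1 and Penk pairs changed little, while that of the Oprl1 pair fell by the most. The 10 libraries are part of the 12 over which these genes were picked as the highest of 11725. High values, also over the 10, therefore follow in part from that choice and are not a test of likeness.

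The rest of the pathway was read from 4 lists of 37 genes, of which 35 were tested. At an adjusted p under 0.05 in edgeR 0 were higher and 0 lower, and at an unadjusted p under 0.05 there was 1 in each direction, where the shares over all genes were 4.68% and 4.4%. The median log2 fold change was 0.02, with 19 above 0 and 16 below, and without MMS 2 and MMS 4 it was 0.01, with the same counts above and below 0. In limma-voom the shares over all genes were 4.01% higher and 6.32% lower at the unadjusted threshold, and DESeq2 and limma-voom called 0 of the list after adjustment.

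Among the 7 genes that process the precursors the median was 0.0034. The prohormone convertase Pcsk1 had the lowest value, at -0.29 (SE 0.21), with 17.2 and 15.3 CPM in MMS 2 and MMS 4. Without these libraries it was -0.02 (SE 0.16), with 32.9 ± 5.19 CPM in 6 controls and 32.4 ± 7.56 CPM in 4 MMS libraries (SD). The convertase inhibitor Pcsk1n was highest, at 0.09 (SE 0.10), and was -0.0084 without them. The other convertase, Pcsk2, was at 0.05 (SE 0.11), or 0.03 without them, and the carboxypeptidase Cpe, which trims the cut peptides, was at -0.19 (SE 0.12), or -0.05 without them. Cpe was the most abundant gene of the pathway lists, at 2800 ± 321 CPM in controls and 2452 ± 496 CPM in MMS (SD, n = 6 per group).

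Of 6 tested peptidases that can break down opioid peptides, 3 were above 0 and 3 below, with a median of 0.01. The endothelin-converting enzyme Ece2 was lowest, at -0.47 (SE 0.19), from 37.8 ± 6.73 CPM in controls to 27.5 ± 9.24 CPM in MMS (SD, n = 6 per group). It was lowest in MMS 2 and MMS 4, and without them the log2 fold change was -0.20 (SE 0.15). The neutral endopeptidase Mme, which cuts enkephalins, was highest, at 0.12 (SE 0.29), and turned to -0.12 (SE 0.33) without them.

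Of 19 tested genes of receptor signalling, 12 were above 0 and 7 below, with a median of 0.03. Among those with a mean of at least 20 counts a library, Gnai1, an inhibitory G protein alpha subunit, was highest at 0.27 (SE 0.12), and Kcnj5, a subunit of G protein-gated potassium channels, was lowest at -0.46 (SE 0.26). Gnai1 was at 207 and 199 CPM in MMS 2 and MMS 4 and at 112 to 161 CPM in the others, and without these libraries its log2 fold change was 0.09 (SE 0.10), while that of Kcnj5 was -0.44 (SE 0.30). Below that mean, the receptor kinase Grk5 was at 0.50 (SE 0.44), and 0.90 (SE 0.36) without them. The alpha subunit Gnao1 was among the abundant genes of this list and was at 0.03 (SE 0.10), or 0.05 without them.

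The last list held Pomc, the precursor of beta-endorphin, and the opioid growth factor receptor genes Ogfr and Ogfrl1, all 3 below 0. Pomc was at -0.46 (SE 0.53), from 25.7 ± 12.5 CPM in controls to 19.1 ± 13.8 CPM in MMS (SD, n = 6 per group). As with Pdyn, its lowest values were those of MMS 4 and MMS 2, at 3.19 and 8.06 CPM, and the other libraries ran from 11.8 to 41.8 CPM. Without these 2 libraries its log2 fold change was -0.02 (SE 0.44), with 25.8 ± 11.6 CPM in the other 4 MMS libraries (SD).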

How the data were processed

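Hypothalamic RNA of 12 pups was made into 3' mRNA libraries by the authors, sequenced on an Ion Proton and aligned to mm10 in Torrent Suite. The deposited table holds unnormalized counts for each gene and library. The counting tool, the annotation and any use of strand are, in the sources used here, not given. Symbols of 27 rows had become calendar dates and were kept as unnamed rows (0.175% of counts).

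Libraries were grouped by sample title. Within groups, 30 pairs of libraries had a chi-square of 4.04 to 31.5 per degree of freedom, so all were counted as separate. Labels do not say that replicate numbers mark litters, and tests treat pups as independent.

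Genes were fitted with edgeR 4.0.16 (quasi-likelihood, robust, TMM scaling, minimum count 10 and minimum total 15) in R 4.3.3, tested on simulated data first, with Benjamini-Hochberg adjustment over 13104 genes. Log2 CPM used a prior count of 2. Alternatives used RLE size factors, DESeq2 1.42.0, limma-voom 3.58.1, no filter, a mean of 20 counts, the replicate block, 1 surrogate variable (sva 3.50.0), leaving out MMS 2 and MMS 4 and leaving out each library. Intervals of zero counts cover counting error only. Levels were compared by exact sign flips over 4096 signs and correlations by exact permutation within groups, in SciPy 1.17.1. Positions and coding sequences came from GENCODE M21, of the same build, and receptor identity from a global alignment in Biopython 1.88.

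Members and lists were chosen with earlier results of these data known. The rule for the genes named took the members, the 2 genes most like each, and of each pathway list the members with the highest and lowest fold change at a mean of at least 20 counts, with Pomc. Other genes were named after their values were seen.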

Additional observations from a re-analysis of the deposited data

Results flagged for a closer look

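Dixon's ratio was taken in 18 sets of 6 values, for controls and MMS separately. The sets were the CPM of each of the 7 genes and of the summed precursors and receptors. The ratio passed its critical value once, where about 1 of 20 separate sets of normally distributed values would. The value was Oprm1 in MMS 1, at 2.11 CPM from 9 counts, where the other 5 MMS libraries lay between 0 and 0.392 CPM. The rate does not hold for so few counts with ties at 0, and the sums reuse values of the single genes.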

How the results depend on the processing

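The counts of family and pathway genes past an adjusted p of 0.05 stayed at 0 under all 8 alternatives and under all 12 omissions of a single library. With 1 library left out the log2 fold change ran from 0.44 to 0.53 for Pnoc, 0.12 to 0.24 for Penk, -0.46 to -0.11 for Pdyn, 0.01 to 0.12 for Oprl1 and -0.34 to -0.10 for Oprk1. Same-numbered control and MMS libraries had correlations of -0.05 to 0.12 and 2 of 6 control libraries correlated best with their own number, so the numbers were not taken as pairs. With the replicate block the log2 fold changes were 0.48 for Pnoc, 0.18 for Penk, -0.39 for Pdyn, 0.06 for Oprl1 and -0.25 for Oprk1. Limma-voom gave -0.45 for Pdyn.

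Without MMS 2 and MMS 4, the libraries with the lowest Pdyn, Penk over Pdyn became -0.23 and Pdyn over Pnoc passed the threshold (0.39). Over single libraries left out, the differences ran from 0.58 to 0.67 for Oprl1 over Penk, -0.10 to 0.14 for Penk over Pdyn, 0.01 to 0.25 for Pdyn over Pnoc, 1.70 to 1.85 for Pnoc over Oprk1, 4.38 to 4.54 for Oprk1 over Oprd1 and 0.11 to 0.39 for Oprd1 over Oprm1. With a prior count of 0.5 the last 2 were 5.17 and 0.54. Correlations changed sign for Penk and Pdyn over all 12 libraries (-0.28), and in controls alone for Pnoc and Oprl1 (-0.16), Penk and Oprm1 (0.078), Pdyn and Oprk1 (0.29), Penk and Pdyn (-0.61) and Pdyn and Pnoc (-0.37). With 1 library left out r ran from 0.06 to 0.48 for Pnoc and Oprl1, -0.46 to 0.21 for Penk and Oprd1, -0.63 to -0.19 for Penk and Oprm1, -0.44 to 0.19 for Pdyn and Oprk1, -0.22 to 0.51 for Penk and Pdyn, 0.28 to 0.72 for Penk and Pnoc and -0.27 to 0.31 for Pdyn and Pnoc. The cause of these changes was not tested. Oprd1 and Oprm1 were fitted in edgeR only without the filter on low counts.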

Other observations

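Peptide genes of other hypothalamic neurons had their own values in MMS 2 and MMS 4, and were named after those values were seen. Pmch, the peptide gene of melanin-concentrating neurons of the lateral hypothalamus, was at 635 and 929 CPM in these libraries, against 195 to 500.2 CPM in the others. Hcrt, which encodes the orexins, was at 155.0 and 155.2 CPM, within the 25.1 to 184 CPM of the others. Sst, which encodes somatostatin, was at 235 and 189 CPM, within the 181 to 261 CPM of the others.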
